A study of Mus musculus with 18 samples.

Results

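The 9 genes described here encode doublecortin and related proteins and the main microtubule-associated proteins of neurons: *Dcx*, *Dclk1*, *Dclk2*, *Pafah1b1*, *Map1b*, *Map2*, *Map4*, *Mapt* and *Tubb3*. They were chosen by gene symbol, and all 9 were found among the 23038 symbols of the count table, 3 of them (*Map1b*, *Map2* and *Map4*) under the older symbols *Mtap1b*, *Mtap2* and *Mtap4*. In the table of alternative splicing events, 27 of 1991 events carried the symbol of one of these genes. *Map2* had 17 of them, *Map4* had 7 and *Dclk2* had 3, and the other 6 genes had no event under their symbols. These 6 include *Dclk1*, which the paper lists among genes with NOVA2-target splicing events that are also tied to agenesis of the corpus callosum. Events were matched by gene symbol only, so an event without a symbol or under another one would be missed.

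Microtubules are polymers of tubulin that give neurons their shape and serve as tracks for transport. Doublecortin-family proteins and the structural microtubule-associated proteins (MAPs) bind along the polymer and stabilize or bundle it, while the LIS1 protein, encoded by *Pafah1b1*, regulates the motor dynein that pulls the nucleus and other cargo along it. Newly born cortical neurons depend on these proteins to migrate into the cortical layers and to extend axons and dendrites, and human mutations in *DCX* and *PAFAH1B1* are known causes of lissencephaly. Several MAP genes also make different proteins in young and mature neurons by alternative splicing.

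The study asked what the neuronal RNA-binding proteins NOVA1 and NOVA2, which bind YCAY motifs (Y is C or U) and regulate splicing, each do in the developing brain. All mice were on the CD1 background and were taken at embryonic day 18.5. Cortex RNA came from 4 groups of 3 mice, *Nova2-/-* embryos with wild-type littermates of their own and *Nova1-/-* embryos with theirs. Midbrain and hindbrain of *Nova1-/-* and wild-type mice enter here only through the splicing table. The *Nova2-/-* allele was made by targeting an IRES-Cre-FRT-Neo-FRT cassette next to the start codon, from which Flp recombinase then removed the neomycin part, and it is carried by all cells of the animal. In these bulk samples, fewer cells of a type and less RNA per cell cannot be told apart.

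The totals of expected counts ranged from 16518172 to 31362018 per mouse. *Nova1* RNA was at 0.119 ± 0.0888 counts per 1000000 counts (CPM; mean ± SD, n = 3) in *Nova1-/-* cortex against 62.9 ± 18.7 CPM in wild-type littermates. *Nova2* RNA was still counted in *Nova2-/-* cortex, at 18.8 ± 2.36 CPM against 34.5 ± 5.56 CPM in wild-type littermates. The paper reports that NOVA2 protein was absent from newborn *Nova2-/-* cortex by Western blot. All 9 markers of neurons and all 7 markers of cortical projection neurons were detected in every group. The 11 markers of meninges, however, were uneven among the wild-type mice: their summed level was 224, 293 and 572 CPM in wild-type littermates of *Nova2-/-* mice, 882 to 1067 CPM in *Nova2-/-* mice and 796 to 1007 CPM in the wild-type mice of the *Nova1* litters. The 6 endothelial markers summed to 149 to 192 CPM in those littermates and to 230 to 239 CPM in *Nova2-/-* mice. Markers of mural cells (77.4 to 102 against 106 to 120 CPM) and of microglia (55.3 to 62.5 against 63.3 to 76.6 CPM) were also apart. The other marker sets overlapped between these groups. Those of choroid plexus varied most within a group, from 97.4 to 1500 CPM among *Nova2-/-* mice. None of these markers was at 0 in any group. Wild-type mouse 3, which held the 572 CPM of meningeal markers, also stood apart from its 2 group mates in several of the genes below.

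The 9 genes spanned a wide range of mRNA levels, and the class III beta-tubulin *Tubb3* led. In CPM per kilobase of annotated exon (RPKM), *Tubb3* stood at 920 ± 74.4 (SD over the 12 cortices), rank 10 of 14754 tested genes with a length. *Map1b*, which encodes an early axonal MAP, followed at 262 ± 22.8 RPKM, and *Mapt*, which encodes tau, at 147 ± 8.27 RPKM. *Dcx* at 118 ± 8 RPKM and *Map2* at 110 ± 9.37 RPKM were next to each other. Below them came *Pafah1b1* at 69.6 ± 5.05 RPKM, *Dclk1* at 64 ± 3.33 RPKM and *Dclk2* at 53.9 ± 4.25 RPKM. *Map4*, a MAP that many non-neuronal cells also make, was lowest at 21.3 ± 1.32 RPKM, rank 2875. Over the 6 wild-type cortices, the ranges of neighbouring genes in this order overlapped for *Dcx* and *Map2*, for *Pafah1b1* and *Dclk1*, and for *Dclk1* and *Dclk2*, and were apart for the other neighbours. For each gene, the highest of the 12 mice was 1.16 times (*Mapt*) to 1.35 times (*Map2*) the lowest.

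**Figure D1:**
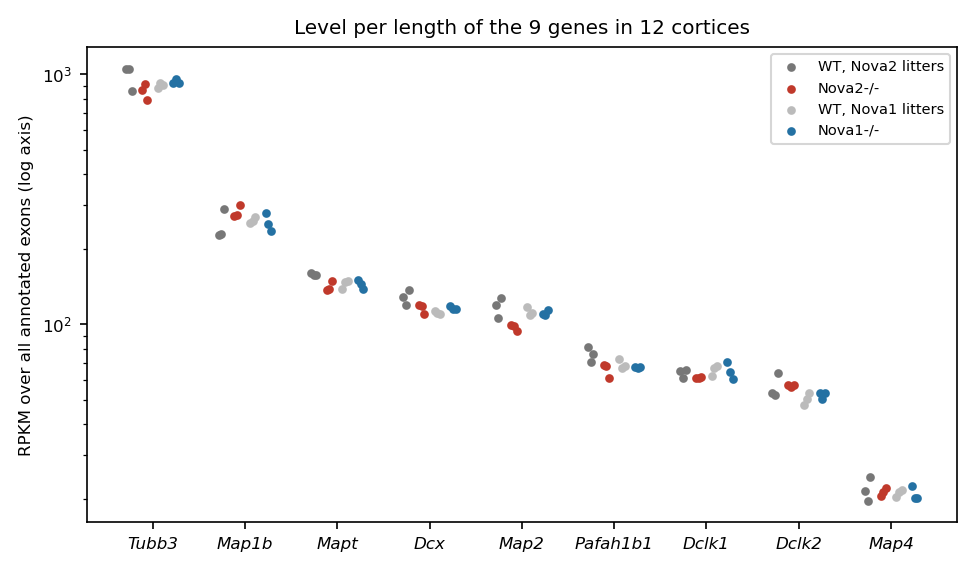
Level per length (RPKM over all annotated exons, log axis) of the 9 genes in each of the 12 cortices, coloured by group. *Tubb3* lies between 792 and 1054 RPKM in every mouse and *Map4* between 19.7 and 24.5 RPKM.

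In *Nova2-/-* cortex, none of the 9 genes passed an adjusted p of 0.05 in edgeR's quasi-likelihood test of the 6 mice, a call that 166 of 15691 genes tested (1.06%) reached, 41 of them (0.261%) with a log2 fold change no closer to 0 than 1. At an unadjusted p below 0.05, 3 of the 9 genes were lower (*Map2*, *Pafah1b1* and *Mapt*) and none was higher, beside 3005 genes in either direction (19.2%). The 3 knockout mice lay below all 3 wild-type littermates for 4 genes (*Dcx*, *Pafah1b1*, *Map2* and *Mapt*), a pattern that 12.8% of all genes tested showed. For none of the 9 did they lie above all 3, as they did for 13% of all genes. The median log2 fold change of the 9 genes was -0.15, beside 0.01 for all genes tested. Set against the wild-type mice of the *Nova1* litters (a later comparison, described with *Map2* below), their median was -0.03, with 4 above 0 and 5 below. Between the wild-type groups, *Nova2* litters against *Nova1* litters, the median of the 9 genes was 0.13, with 7 above 0 and 2 below. The size of the lower median thus depended on which wild-type mice were compared. Against wild-type littermates, all 11 meningeal markers had a log2 fold change above 0 in *Nova2-/-* cortex, with a median of 1.34. Their part in the values of the 9 genes was not tested. The 9 neuronal markers summed to 1973 to 2023 CPM in *Nova2-/-* and 2012 to 2150 CPM in wild-type mice, with a median log2 fold change of 0.02.

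*Map2*, whose product stabilizes microtubules in dendrites, had the smallest p of the 9. Its level was 1968, 1750 and 2089 CPM in the wild-type mice and 1632, 1616 and 1546 CPM in the *Nova2-/-* mice. The groups did not overlap, and the 3 knockout values were closer together than the wild-type ones. The log2 fold change was -0.27 (SE 0.08, 95% interval -0.46 to -0.09, adjusted p = 0.137 by edgeR). The call depended on the fit: with the same mice DESeq2 gave an adjusted p of 0.0236, and edgeR gave 0.0189 when all 12 cortices shared one estimate of the spread. *Map2* was also the only one of the 9 genes whose 3 *Nova2-/-* values lay below those of all 9 other cortices, which was so for 897 of 16210 genes (5.53%). Against the wild-type mice of the *Nova1* litters, whose meningeal marker levels overlapped those of the *Nova2-/-* mice, its log2 fold change was -0.21 (SE 0.05, adjusted p = 0.0136 by edgeR). In that comparison across litters, which was added after the data had been seen, 2 of the 9 genes passed beside 19% of all genes tested, the other being *Dclk2* at 0.18 (adjusted p = 0.0392).

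Counts per gene sum over all exons. A change in how often a long exon is kept and a change in the number of transcripts cannot be told apart for *Map2*, whose alternative region (described with its splicing events below) holds an annotated exon of 3741 nt. An annotated antisense transcript, *Gm10558*, overlaps exons of *Map2*, and with a library kit that does not mark strand their reads cannot be told apart either.

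*Pafah1b1* gave 778, 680 and 732 CPM in the wild-type mice and 663, 656 and 586 CPM in the *Nova2-/-* mice. The groups were apart by a narrow margin, and the log2 fold change of -0.20 (SE 0.08, 95% interval -0.37 to -0.02) had an adjusted p of 0.216 by edgeR. *Mapt* gave 1202, 1186 and 1190 CPM in the wild-type mice, a much tighter group than the 1035, 1042 and 1121 CPM of the *Nova2-/-* mice. Its log2 fold change was -0.16 (SE 0.07, adjusted p = 0.257 by edgeR). For both genes, the *Nova2-/-* values overlapped those of the wild-type mice of the *Nova1* litters, which were 645 to 697 CPM for *Pafah1b1* and 1036 to 1119 CPM for *Mapt*.

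*Dcx*, the doublecortin gene of migrating neurons, gave 1633, 1516 and 1733 CPM in the wild-type mice and 1501, 1499 and 1387 CPM in the *Nova2-/-* mice. The lowest wild-type mouse was just above the highest knockout mouse, and the log2 fold change of -0.15 (SE 0.08) had an adjusted p of 0.323 by edgeR. The wild-type mice of the *Nova1* litters, at 1433, 1400 and 1398 CPM, were below every wild-type littermate of the *Nova2-/-* mice. Set against those mice, the log2 fold change of *Dcx* in *Nova2-/-* cortex was 0.05, with the opposite sign. *Dclk1* and *Dclk2* encode kinases that carry the doublecortin domains. *Dclk1* was at 863 ± 30.7 CPM in wild-type and 828 ± 7.13 CPM in *Nova2-/-* cortex, and *Dclk2* at 239 ± 27.3 CPM and 242 ± 2.28 CPM (mean ± SD, n = 3). The 95% intervals of their log2 fold changes, -0.20 to 0.09 and -0.17 to 0.21, include 0.

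*Map1b* was the only one of the 9 with a log2 fold change above 0.1 in *Nova2-/-* cortex, at 0.18 (SE 0.11, adjusted p = 0.398 by edgeR). It gave 2745, 2764 and 3496 CPM in the wild-type mice and 3285, 3318 and 3607 CPM in the *Nova2-/-* mice. Wild-type mouse 3 alone lay within the range of the knockouts. *Tubb3* showed the same mouse on the other side: 1968, 1957 and 1602 CPM in the wild-type mice and 1610, 1712 and 1480 CPM in the *Nova2-/-* mice, for a log2 fold change of -0.20 (SE 0.10, adjusted p = 0.321 by edgeR). Without wild-type mouse 3, the log2 fold change of *Map1b* was 0.31 (adjusted p = 0.0303) and that of *Tubb3* was -0.29 (adjusted p = 0.0365), and both passed the threshold in edgeR. The part of that mouse's higher meningeal marker level in these values was not tested. *Map4* was at 283 ± 31.3 CPM in wild-type and 276 ± 10.8 CPM in *Nova2-/-* cortex, with a log2 fold change of -0.03 (95% interval -0.23 to 0.16). A pseudogene on the same strand overlaps exons of *Map4*, so its counts are less certain.

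**Figure D2:**
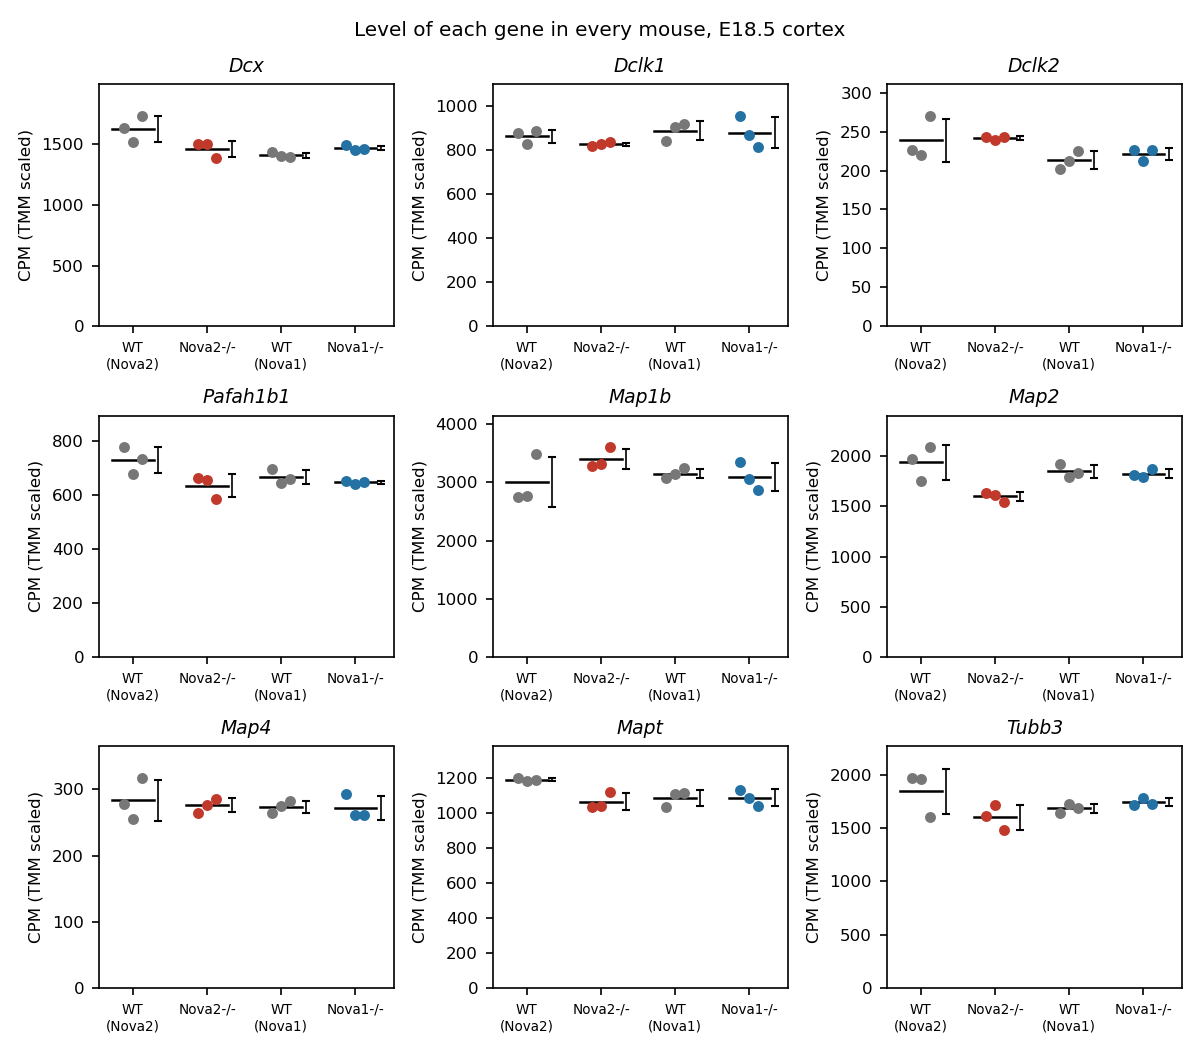
Level of each of the 9 genes (CPM, TMM scaled, axes from 0) in each mouse of the 4 groups, WT (Nova2) and WT (Nova1) being the wild-type mice of each set of litters. Points are mice, horizontal lines are group means and error bars are SD (n = 3); the red *Nova2-/-* points of *Map2* lie below all other mice.

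In *Nova1-/-* cortex, none of the 9 genes passed an adjusted p of 0.05 in edgeR, as did only 2 of 15901 genes (0.0126%), both of them also past that fold limit (0.0126%). None had an unadjusted p below 0.05 either, beside 7.44% of all genes. The log2 fold changes lay between -0.04 (*Pafah1b1*) and 0.06 (*Dcx*). The *Map2* values were 1921, 1791 and 1829 CPM in wild-type and 1808, 1792 and 1873 CPM in *Nova1-/-* cortex, with a 95% interval of the log2 fold change of -0.13 to 0.09. *Dcx* was the only gene of the 9 whose groups were apart, with 1493, 1457 and 1461 CPM in *Nova1-/-* mice above the 1433, 1400 and 1398 CPM of their littermates, a pattern seen in 6.8% of all genes. Its log2 fold change of 0.06 (SE 0.04) had an adjusted p of 0.821 by edgeR.

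**Figure D3:**
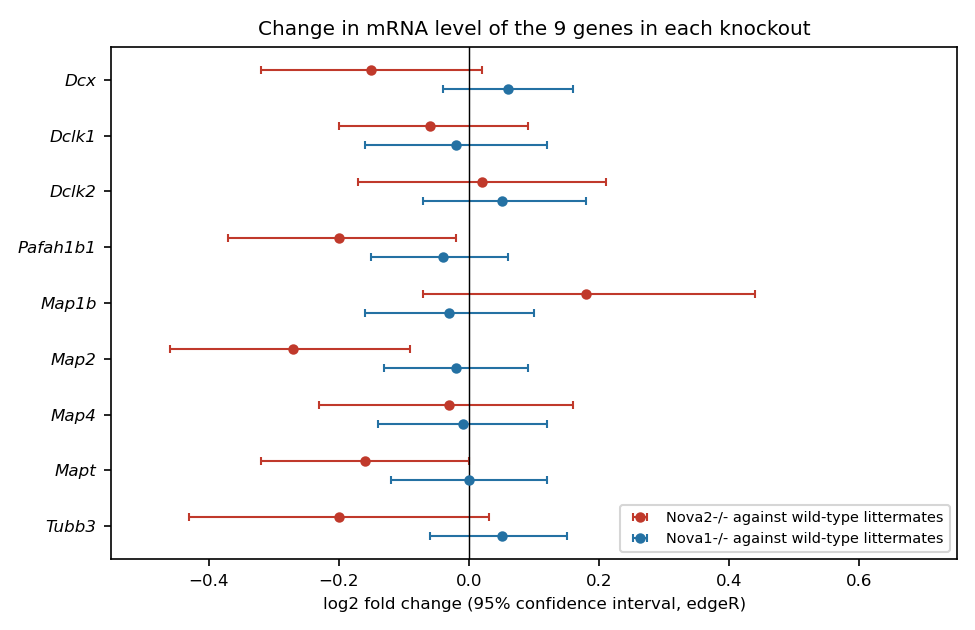
Log2 fold change of each gene in *Nova2-/-* (red) and *Nova1-/-* (blue) cortex against wild-type littermates, with 95% confidence intervals from edgeR. *Map2* in *Nova2-/-* cortex, at -0.27, is farthest from 0, and the *Nova1-/-* points lie between -0.04 and 0.06.

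The difference between the changes in the knockouts was tested in one fit of the 12 cortices, and none of the 9 genes passed an adjusted p of 0.05 in edgeR, beside 296 of 16210 genes (1.83%). At an unadjusted p below 0.05, *Map2*, *Dcx* and *Tubb3* differed, beside 18.2% of all genes. Taken as the *Nova2-/-* log2 fold change less that of *Nova1-/-*, the difference was -0.27 for *Map2* (95% interval -0.46 to -0.07, adjusted p = 0.146 by edgeR), -0.22 for *Dcx* (-0.40 to -0.04, adjusted p = 0.176) and -0.26 for *Tubb3* (-0.51 to -0.01, adjusted p = 0.253). Without wild-type mouse 3 of the *Nova2* litters, *Tubb3* alone passed, at -0.34 (adjusted p = 0.0292 by edgeR).

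The wild-type cortices of the 2 sets of litters carry the same genotype, and they show how far these genes differ without a knockout. None of the 9 genes passed an adjusted p of 0.05 in edgeR, beside 483 of 15918 genes (3.03%). *Dcx* alone had an unadjusted p below 0.05, beside 21.1% of all genes, and was higher in the *Nova2* litters by a log2 fold change of 0.21 (SE 0.07, adjusted p = 0.138 by edgeR). With DESeq2 this difference had an adjusted p of 0.047, and in one edgeR fit of the 12 cortices 0.0334. *Mapt* was also higher in all 3 wild-type mice of the *Nova2* litters, at 1186 to 1202 CPM against 1036 to 1119 CPM, with a log2 fold change of 0.13 (adjusted p = 0.289 by edgeR). The *Dcx* difference between wild-type groups was larger than its log2 fold change of -0.15 in the knockout, and that of *Mapt* was close to its -0.16. For *Map2* the wild-type difference was 0.07 (95% interval -0.11 to 0.25). Without wild-type mouse 3, *Map1b* at -0.19 (adjusted p = 0.0331 by edgeR) and *Tubb3* at 0.22 (adjusted p = 0.0165) passed between the wild-type groups too. The share of expected counts with a fractional part was 7.48% to 11.7% in mice of the *Nova2* litters but 18.6% to 20% for *Nova1*, and all 11 meningeal markers were lower in the *Nova2* litters, by a median log2 fold change of -1.09, so litters, tissue taken and any difference in how their counts were made cannot be told apart.

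Of the wider microtubule gene set, 181 tested genes in 9 lists, 1 gene (0.552%) passed an adjusted p of 0.05 in edgeR in *Nova2-/-* cortex, beside 1.06% of all genes. At an unadjusted p below 0.05 there were 45 (24.9%), of which 29 were lower, beside 19.2% of all genes. The gene that rose was *Cdk5rap2*, which encodes a centrosomal protein that promotes microtubule nucleation, from 74.9 CPM in wild-type to 128 CPM (log2 fold change 0.77, SE 0.06, adjusted p = 0.00495). It was also the 1 list gene whose change differed between the knockouts, by 0.76 (adjusted p = 0.00057 by edgeR). The median log2 fold change over all list genes was -0.04. In *Nova1-/-* cortex no list gene passed and 14 of 180 (7.78%) had an unadjusted p below 0.05, beside 7.44% of all genes.

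Among the lists, that of kinases and phosphatases of MAPs leaned lower in *Nova2-/-* cortex, with 21 of 25 genes below 0, 7 at an unadjusted p below 0.05 (all of them lower, where 19.2% of all genes reach that p in either direction), and a median log2 fold change of -0.15 beside 0.01 for all genes. Its largest changes in size were in *Ppp2cb* (-0.24, adjusted p = 0.182 by edgeR) and *Ppp2ca* (-0.23, adjusted p = 0.137), which encode catalytic subunits of the phosphatase PP2A, and in *Mark3* (-0.23, adjusted p = 0.106), a kinase of MAPs. None of these passed. The same list was higher in the wild-type mice of the *Nova2* litters than in those of the *Nova1* litters, by a median of 0.15, and 5 of its 25 genes passed there, beside 3.03% of all genes: *Brsk1* (0.59), *Ppp1r9b* (0.43), *Ttbk1* (0.38), *Ppp2ca* (0.33) and *Mark3* (0.27). The plus-end and crosslinking proteins had the highest median, 0.13, with 6 of 17 genes higher and 1 lower at an unadjusted p below 0.05, again beside 19.2% of all genes. *Mapre3*, which encodes the plus-end binding protein EB3, was at 0.43 (adjusted p = 0.144 by edgeR) and *Clasp2*, which encodes a plus-end stabilizer, at 0.30 (adjusted p = 0.106).

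No gene of the remaining 7 lists passed in *Nova2-/-* cortex. The counts below at an unadjusted p below 0.05 stand beside 19.2% of all genes tested, in either direction. The tubulins had 5 of 15 genes lower and 2 higher at an unadjusted p below 0.05, with the largest changes in *Tuba1c* (0.92, adjusted p = 0.192 by edgeR), *Tuba4a* (-0.72, adjusted p = 0.0703) and *Tubg2* (-0.48, adjusted p = 0.106). The LIS1 and dynein list had 5 of 27 lower and 1 higher, led by *Dynlt1b* (0.94, SE 0.94), *Actr10* (-0.32, adjusted p = 0.0992) and *Dctn6* (-0.29, adjusted p = 0.213), the latter pair encoding dynactin subunits. Of 4 tested relatives of doublecortin, *Dclk3* was lower at -0.51 (SE 0.10, adjusted p = 0.0642), and the sparsely counted *Rp1* and *Dcdc2a* gave -1.47 (SE 0.79) and 0.36 (SE 0.33). Among 30 other structural MAPs, 2 were higher and 1 lower at an unadjusted p below 0.05, and the largest changes were in *Map7d3* (0.78), *Eml2* (0.53, adjusted p = 0.0649) and *Mid1* (-0.39). The kinesins had 2 of 24 higher and 4 lower, led by *Kif26b* (0.38), *Kif7* (0.30) and *Kif1c* (0.26). Stathmins and severing proteins, which destabilize or cut microtubules, had 1 of 13 higher and 2 lower, led by *Katnal2* (0.70), *Stmn1* (-0.37) and *Fignl2* (0.27). The list of tubulin-modifying enzymes, which also holds tubulin folding cofactors such as *Tbcb*, had 2 of 26 higher and 3 lower. It was led by *Ttll11* (-0.36), *Agbl3* (-0.35) and *Tbcb* (-0.28).

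**Figure D4:**
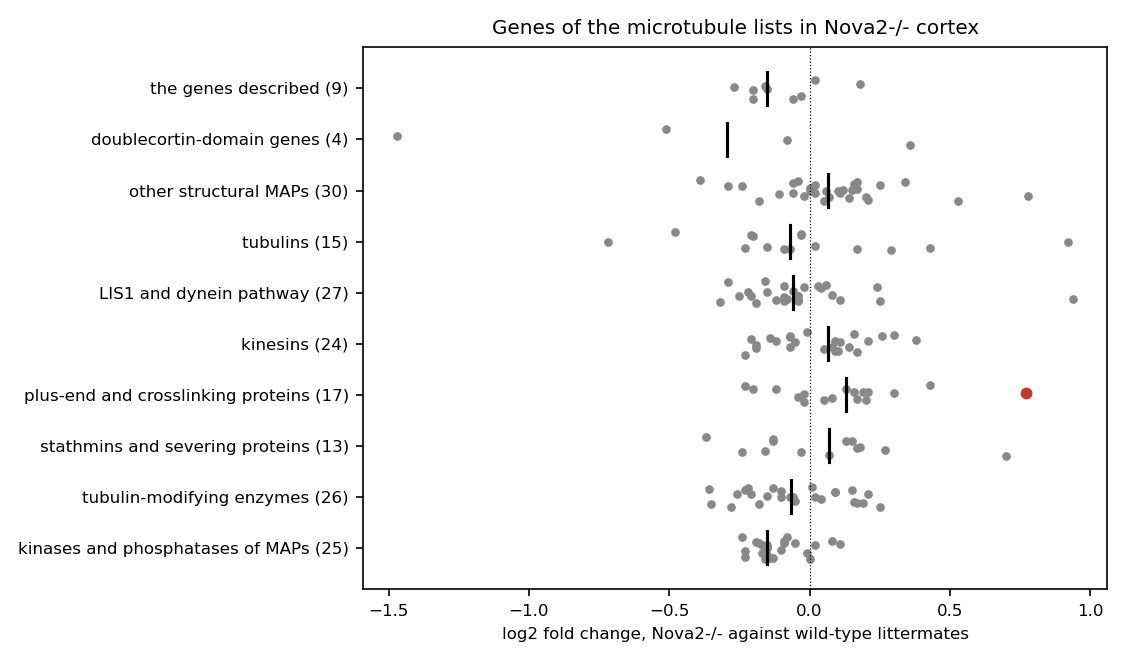
Log2 fold change in *Nova2-/-* cortex of the genes described and of the tested genes of the 9 lists (number in parentheses); points are genes, with a vertical line at each list's median and the 1 gene past an adjusted p of 0.05, *Cdk5rap2*, in red. The median of the 9 genes is -0.15 and that of the kinases and phosphatases is also -0.15.

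Among the 9 genes, *Map2*, *Map4* and *Dclk2* had alternative splicing events under their symbols in the deposited table. No event of *Dclk1*, which the paper lists among NOVA2 splicing targets, was found by symbol in that table. That table gives, for each event, dI, the inclusion fraction of the alternative sequence in wild-type minus that in the knockout, so that for a cassette exon a positive dI is lower inclusion in the knockout. Each dI is 1 value per comparison, without replicates or read counts, so no error can be given for it. The FDR that the authors gave for each event and comparison was not used here. The table was selected for dI of at least 0.1 in size at an FDR below 0.1 in *Nova2-/-* cortex, and on NOVA binding. The *Nova2-/-* values below are therefore descriptions, whereas the *Nova1-/-* values were not used to select the table. The 3 genes with events differ in sign: dI in *Nova2-/-* cortex was positive for all 17 events of *Map2*, for 2 of 3 of *Dclk2* and for 3 of 7 of *Map4*. Those 3 of *Map4* are mutually exclusive exons, where more of one is less of the other, and the event names do not say which exon is scored, so their sign gives no direction of inclusion.

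The 3 exons whose positions the event names give are shown with neighbouring intron sequence from mm9, in the sense of transcription. Capitals mark YCAY motifs (TCAT and also TCAC, and with a first C also CCAT and CCAC), searched on the transcribed strand, with overlapping motifs also marked. The exon is bases 101 to 148 of the *Dclk2* sequence (chr3:86634646-86634893, minus strand), bases 40 to 261 of the first *Map4* sequence (chr9:109966693-109966992, plus strand) and bases 56 to 245 of the second *Map4* sequence (chr9:109983870-109984169, plus strand).
Dclk2 48-nt exon: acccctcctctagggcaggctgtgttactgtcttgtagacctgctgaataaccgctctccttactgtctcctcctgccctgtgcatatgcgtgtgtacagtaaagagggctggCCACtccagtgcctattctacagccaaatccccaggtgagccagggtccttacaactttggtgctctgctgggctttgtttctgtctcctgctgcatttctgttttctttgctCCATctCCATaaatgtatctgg
Map4 222-nt exon: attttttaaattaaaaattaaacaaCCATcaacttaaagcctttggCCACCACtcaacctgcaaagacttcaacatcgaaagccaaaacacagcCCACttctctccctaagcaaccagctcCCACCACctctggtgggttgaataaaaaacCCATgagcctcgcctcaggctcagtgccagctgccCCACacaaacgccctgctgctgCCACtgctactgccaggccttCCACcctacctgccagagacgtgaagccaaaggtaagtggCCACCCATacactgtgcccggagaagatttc
Map4 190-nt exon: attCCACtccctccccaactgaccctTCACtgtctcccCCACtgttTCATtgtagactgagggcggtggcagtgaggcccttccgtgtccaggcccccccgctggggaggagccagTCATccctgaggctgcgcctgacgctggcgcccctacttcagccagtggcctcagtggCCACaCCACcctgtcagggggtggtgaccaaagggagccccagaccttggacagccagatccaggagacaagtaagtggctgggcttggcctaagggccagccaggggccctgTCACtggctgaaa

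The 190-nt exon of *Map4* (chr9:109983925-109984114) had the largest dI in size of the 3 exons, -0.524 in *Nova2-/-* cortex, so its inclusion was higher in the knockout. In *Nova1-/-* cortex its dI was -0.00426, and in *Nova1-/-* midbrain and hindbrain -0.00337. The sequence of this exon is the one with most YCAY motifs on its upstream side: 9 within the 200 nt before the exon, 3 in the exon and 2 within the 200 nt after it. At least 9 motifs in that upstream window were found at 1.48% of 185475 annotated internal exons of protein-coding genes and at 6.02% of the 299 exons of the event table that have a position, where the median was 4. Since the table was selected on binding at such motifs, their presence is in part the choice of events.

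The exon is coding, and its length is not a multiple of 3. In the annotation, the 6 transcripts that hold it end at stop codons that start at 109984244 or 109984347 of chromosome 9, and the 2 transcripts that join the same preceding exon without it end at a stop codon at 109984489. The C-terminal end of the encoded MAP4 protein thus differs between the forms in the annotation.

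The 222-nt exon of *Map4* (chr9:109966732-109966953), a coding exon with a length that is a multiple of 3, had a dI of -0.23, and the other events of the same span had -0.255 and -0.253. These 3 events rest on the same region and are not independent. Their dI in *Nova1-/-* cortex was of the other sign, from 0.0409 to 0.0513, and in midbrain and hindbrain from 0.0167 to 0.0282. The exon itself holds 9 YCAY motifs, with 4 in the 200 nt before it and 3 in the 200 nt after it. At least as many were found before 43.1% and after 60.3% of annotated internal exons, so these flanking counts were common ones. The remaining *Map4* events are 3 pairs of mutually exclusive exons that all end near the 3′ end of the gene, at base 109986458. Their dI was 0.115, 0.552 and 0.558. Their spans overlap and all hold the 190-nt exon. These 3 events and the event of that exon may therefore score the same sequence and cannot be counted as independent. The mutually exclusive event with 0.115 in *Nova2-/-* cortex had a dI of nearly the same size in *Nova1-/-* cortex, 0.117. It was the only event of the 27 with a dI of at least 0.1 in size there, beside 11.1% of all events with a value.

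The 48-nt exon of *Dclk2* (chr3:86634746-86634793) is coding, keeps the reading frame and is held by 2 of the 4 annotated transcripts that span it. Its dI was 0.365 in *Nova2-/-* cortex, 0.0163 in *Nova1-/-* cortex and 0.0975 in *Nova1-/-* midbrain and hindbrain. A further cassette event of the same span had 0.258, 0.0145 and 0.0809. Both events had positive values in all 3 comparisons, and the smallest were those of *Nova1-/-* cortex. This exon had 5 YCAY motifs in the 200 nt after it, 3 in the 200 nt before it and 1 within it. At least 5 downstream motifs were found at 23.2% of annotated internal exons and at 39.1% of the exons of the event table, so this count was a common one. The remaining event of *Dclk2*, an alternative 5′ splice site (chr3:86590072-86596033), had a dI of -0.4 in *Nova2-/-* cortex, -0.0916 in *Nova1-/-* cortex and 0.0778 in midbrain and hindbrain, where the sign was the opposite.

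All 17 events of *Map2* share 1 span (chr1:66448018-66466770, plus strand), and only 8 genes had more events in the table. They are 3 cassette and 14 tandem cassette events, which combine the same exons in different ways, so they count as 1 region and not as 17 observations. Their dI in *Nova2-/-* cortex ran from 0.134 to 0.421 with a median of 0.276. The event names do not say which exon each value belongs to. The annotation places in-frame exons of 3741, 207 and 135 nt within the span, and inclusion of the long one is known to separate the high-molecular-weight MAP2 of mature neurons from the shorter form of young neurons. In *Nova1-/-* cortex all 17 were slightly negative, from -0.0779 to -0.000491, that is, of the opposite sign. In midbrain and hindbrain 9 were positive, up to 0.0284, and 8 were negative, down to -0.101. That lowest value was the only one of the 27 events with a dI of at least 0.1 in size in midbrain and hindbrain, beside 15.9% of all events.

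Over the 27 events, the median size of dI was 0.276 in *Nova2-/-* cortex, where the table was selected for at least 0.1. It was 0.0163 in *Nova1-/-* cortex and 0.0264 in *Nova1-/-* midbrain and hindbrain. The whole table gave 0.223, 0.0341 and 0.0378. Because 17 of the 27 events share the 1 *Map2* span, these medians largely describe *Map2*, whose own were 0.276, 0.0125 and 0.0263. The sign in *Nova1-/-* cortex was the same as in *Nova2-/-* cortex for 7 of the 27, beside 872 of 1984 events of the table (44%), and in midbrain and hindbrain for 12, beside 1149 of 1991 (57.7%). The 7 were among the 10 events of *Dclk2* and *Map4*, since the 17 events of the 1 *Map2* span all had the other sign. Of the 12, 9 were events of that *Map2* span, so neither count is one of independent events.

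**Figure D5:**
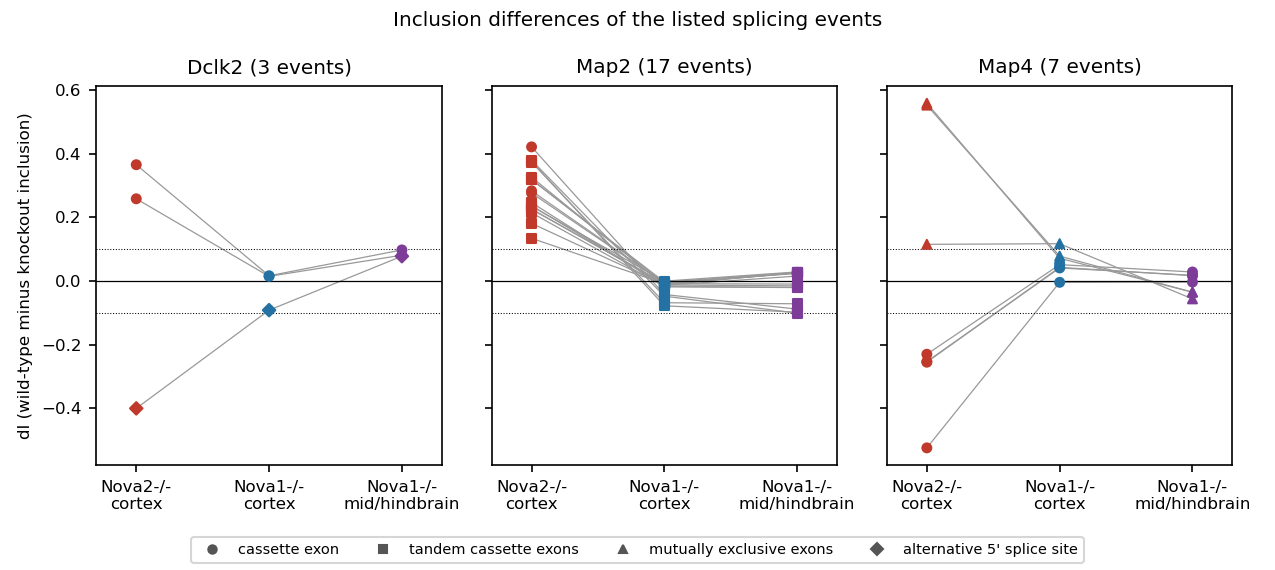
Inclusion difference dI (wild-type minus knockout) of each event of *Dclk2*, *Map2* and *Map4* in the 3 comparisons; marker shapes give the event type, lines join the same event and dotted lines mark 0.1 in size. In *Nova2-/-* cortex the values run from -0.524 to 0.558, and in the other comparisons all but 2 lie within the dotted lines.

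The other microtubule lists held 95 events, and 23 of their 181 tested genes (12.7%) had at least 1, beside 508 of 15691 genes tested (3.24%). The lists were chosen with earlier results of these data known, and the genes were not matched for level or number of exons. The shares are therefore a description, and their difference was not tested. None of the 16 tubulin genes and none of the 7 relatives of doublecortin had one. The plus-end and crosslinking proteins had most, 38 events in 7 of 17 genes, followed by the kinesins with 17 events in 5 of 24 genes and the LIS1 and dynein list with 17 events in 3 of 27 genes. The list events with the largest dI in size were in *Map7d2* (0.643), *Clasp2* (0.56, 0.534 and 0.482 in 1 span), *Camsap1* (0.484 and 0.441), *Nav3* (-0.451 and -0.386) and *Mapk9* (0.416 and 0.395). *Cdk5rap2*, the list gene that rose in abundance, also had events in the table.

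Finally, the genes with profiles most like each of the 9 were found over the 12 cortices, by the root mean square difference of centred log2 CPM values among genes that varied at least as much. For *Map2* they were *Ube2j1*, *Gprasp1* and *Grpel2* (differences of 0.04 to 0.0481, where *Map2* itself had an SD of 0.124). For *Dcx* they were *Dnajc18*, *Ulk2* and *2310008H09Rik*, for *Dclk1* *Klc2*, *Dlg2* and *B4galt6*, and for *Dclk2* *Usp49*, *Inpp5e* and *Stk24*. For *Pafah1b1* they were *Fam169a*, *Lamp1* and *Ppp2r5c*, for *Map1b* *Tanc2*, *Fat3* and *Kdm3b*, and for *Map4* *Pip4k2b*, *Brd2* and *Btbd6*. For *Mapt* they were *Maz*, *Cnih2* and *Arhgdia*, and for *Tubb3* *Crip2*, *Cdh8* and *Cluap1*. The differences ranged from 0.0365 to 0.0566, and no gene of the 9 was among the nearest of another.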

How the data were processed

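Cortex RNA of 12 mice was analysed. Per the paper's methods, RNA was depleted of ribosomal RNA, made into TruSeq libraries and sequenced. The authors aligned the reads with OLego to mm10 and deposited expected counts per gene symbol without normalization, and these estimated counts were rounded here. The deposited dI values are differences of inclusion fractions, 1 score per event and comparison, in mm9 coordinates. The sign of dI was checked on events whose direction the paper's text gives. The authors' own log2 fold changes and FDR values were not used. RNA levels outside the cortex were not analysed here.

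Groups follow the labels (genotype, region, replicate number), and wild-type mice were placed in litters from these and the methods. Fits used edgeR 4.0.16 in R 4.3.3 (TMM, filterByExpr, the quasi-likelihood test, Benjamini-Hochberg adjustment over all genes tested) on the 6 mice compared, or all 12 for the difference between knockouts. P-values measure the spread between 3 mice per group. The test was checked on simulated counts. CPM used TMM factors over 12 cortices, and RPKM divided CPM by the union of exons of the mm9 annotation. DESeq2 1.42.0 was an alternative, beside other scalings, filters and thresholds, a replicate block and each mouse left out. Figures used matplotlib 3.10.9.

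The genes described and the lists were chosen with earlier results of these data known. Genes named were, by rule, the 9 genes, their events, list genes past an adjusted p of 0.05, the 3 with the largest change per list (printed for *Nova2-/-*), the 10 list events with the largest dI, and the 3 nearest profiles per gene.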

Additional observations from a re-analysis of the deposited data

How the results depend on the processing

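Of the 9 genes, none passed an adjusted p of 0.05 in *Nova1-/-* cortex under any alternative tried. In *Nova2-/-* cortex 1 passed (*Map2*) with DESeq2 and 1 (*Map2*) with all 12 cortices in one fit, 2 passed (*Map2* and *Dclk2*) against the wild-type mice of the *Nova1* litters, and 0 to 2 passed with each mouse left out (*Map1b* and *Tubb3* without wild-type mouse 3). Between the wild-type groups 1 (*Dcx*) passed with DESeq2 and 1 (*Dcx*) in one fit, and 0 to 2 with each mouse left out, and for the difference between knockouts 0 to 1. A fit that leaves out 1 mouse has a group of 2. The cause of these changes was not tested.

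Signs turned only for log2 fold changes near 0, or against the other litters' wild-type mice, where *Dcx* gave 0.0542 and *Map4* 0.0149. For *Mapt* in *Nova1-/-* cortex the value was 0.0012 with upper-quartile factors and 6e-04 with at least 10 counts in every sample. With each mouse left out, the log2 fold changes in *Nova2-/-* cortex ran from -0.0262 to 0.117 for *Dclk2* and from -0.0965 to 0.0526 for *Map4*. In *Nova1-/-* cortex they ran from -0.0751 to 0.0379 for *Dclk1*, -0.0884 to 0.0236 for *Map1b*, -0.0376 to 0.0114 for *Map2*, -0.0609 to 0.0202 for *Map4* and -0.0364 to 0.0299 for *Mapt*. The difference between knockouts ran from -0.103 to 0.0169 for *Dclk1*, -0.081 to 0.0602 for *Dclk2* and -0.0797 to 0.0582 for *Map4*, and the difference between wild-type groups from -0.035 to 0.1166 for *Map4*. *Map2* in *Nova2-/-* cortex stayed between -0.3326 and -0.2157.

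Genes past both thresholds in *Nova2-/-* cortex numbered 41, and 117 at an adjusted p of 0.1, 67 without a filter, 129 with DESeq2, 185 in one fit of 12, 256 against the other wild-type mice and 4 to 254 with each mouse left out (254 without wild-type mouse 3). In *Nova1-/-* cortex they numbered 2, and 1 with at least 10 counts in every sample, 4 with DESeq2 and 1 to 7 with each mouse left out. For the difference between knockouts they numbered 113, and 229 at an adjusted p of 0.1, 207 with DESeq2 and 59 to 315 with each mouse left out. For the wild-type groups they numbered 103, and 177 at an adjusted p of 0.1, 209 in one fit of 12 and 3 to 459 with each mouse left out.

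With the replicate number as a block (replicate block), 55 genes passed both thresholds in *Nova2-/-* cortex and the *Map2* log2 fold change was -0.27 (adjusted p = 0.0984 by edgeR). The block changed no call at an adjusted p of 0.05 among the 9 genes. At an unadjusted p below 0.05 it gave 4 lower and 1 higher, adding *Tubb3* (lower, adjusted p = 0.131 by edgeR) and *Map1b* (higher, adjusted p = 0.153 by edgeR). Same-numbered mice deviated together with correlations of 0.113, 0.00658 and 0.168 across genes, so the numbers were not taken to pair mice. The *Nova1* litters have different numbers in their groups. The 27 events came to 7 with 1 event per span and 9 as cassette exons only.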
